A study of Mus musculus with 10 samples.

Results

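Germinal center B cells are recognised in transcript data by a small set of genes, and 9 of them were followed here through a feeder culture that is used as a stand-in for the germinal center. The 9 genes, Fas, Basp1, Rgs13, S1pr2, Mef2b, Gcsam, Nedd9, Cd38 and Mybl1, were taken by name from the 55492 gene symbols of a mouse RNA-seq count table. All 9 were found, and all 9 passed a filter on low counts that kept 21010 genes. Of the 9, 6 rose in culture (Fas, Basp1, S1pr2, Mef2b, Gcsam and Mybl1) and 3 fell (Cd38, Nedd9 and Rgs13), in WT and in KO cells. Between KO and WT cultures, Cd38 and Nedd9 were higher in KO, calls that held in 4 (Cd38) and 5 (Nedd9) of the 10 fits that each left out 1 library. Of these 10 fits, all that kept the Cd38 call, and all but 1 that kept the Nedd9 call, left out a naive library. Over all 16 alternative fits, these 10 included, the Cd38 call held in 10 and the Nedd9 call in 11.

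The libraries came from spleen B cells of mice with floxed Pcbp1 alleles and Mb1-Cre (Pcbp1 fl/fl Mb1-Cre, KO) and of WT mice. Mb1-Cre places the recombinase under the Cd79a locus, so that deletion occurs in cells of the B lineage. Naive B cells were sampled on day 0 (2 WT and 2 KO libraries), and induced germinal center B cells (iGCB) on day 4 of culture on 40-LB cells (3 WT and 3 KO libraries). 40-LB cells are fibroblasts that display CD40 ligand and secrete BAFF, and so supply some of the signals that helper T cells and stroma give in a follicle. The labels give no sex, age or strain, do not say whether WT mice carried Cre, name no cytokines, and do not tie each library to its own animal. The p-values therefore measure only the spread between these libraries. No germinal center cells taken from an animal were among the libraries, so the values show the direction in which each marker moved and not its distance from a germinal center cell.

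In a germinal center, B cells that have met antigen divide, mutate their antibody genes and compete for help from T cells. They leave the naive state by silencing genes for recirculation and survival, and they switch on genes for death sensitivity, confinement to the follicle and a transcription program built around Bcl6. Fas is a death receptor and a standard surface marker of these cells. S1pr2 is a receptor for sphingosine 1-phosphate that holds cells in the germinal center, and Rgs13 is a regulator of G protein signalling that damps chemokine receptors there. Mef2b and Mybl1 (A-Myb) are transcription factors of the germinal center. Gcsam is an adaptor that links the antigen receptor to the cytoskeleton, Nedd9 is a Cas family scaffold in integrin signalling, and Basp1 is a myristoylated protein of the inner membrane face and the nucleus. Cd38 is an NAD-consuming surface enzyme, which in mice is high on naive B cells and low on germinal center B cells, the reverse of its use as a marker in humans.

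Library totals ranged from 33400672 to 63576147 counts. Levels are given as CPM, counts scaled to a common TMM-adjusted library total. Pcbp1, the deleted gene, stood at 152 and 83.9 CPM in the naive WT libraries and 4.33 and 0.448 in the naive KO libraries. After culture it was at 148 to 327 CPM in WT and 1.96 to 3.71 in KO, so it followed the labels in every library. The KO fall of Pcbp1 passed the test in iGCB (log2 fold change -6.60, adjusted p = 0.00151) and missed it in naive cells (-5.59, adjusted p = 0.0561). The summed level of 8 B cell markers was 8481 to 9606 CPM (WT) and 6700 to 6907 (KO) in naive cells, and 4224 to 4623 (WT) and 4901 to 5225 (KO) after culture. Xist and Y-linked genes placed naive WT 1 and naive KO 1 with female mice and the other 8 libraries with male mice. In these bulk samples, fewer cells of a type and less RNA per cell cannot be told apart.

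The genes lie on 8 chromosomes of the mm10 build (GENCODE M21). Fas is at chr19:34290666-34327772 on the plus strand, Basp1 at chr15:25363277-25413764 (minus), S1pr2 at chr9:20962361-20976781 (minus), Mef2b at chr8:70139711-70167488 (plus) and Gcsam at chr16:45610380-45622867 (plus). Mybl1 is at chr1:9667415-9700209 (minus), Rgs13 at chr1:144138654-144177372 (minus), Cd38 at chr5:43868553-43912375 (plus) and Nedd9 at chr13:41309581-41487362 (minus). Exons of Mef2b overlap those of Borcs8 on the same strand, and exons of Nedd9 overlap the antisense gene Gm32401. The strand setting of the counting is unknown here, so the division of reads in these overlaps is uncertain. Borcs8 had mean levels of 24 (WT) and 16 (KO) CPM in naive cells and 38.4 (WT) and 40.9 (KO) in culture, and Gm32401 had 5.02, 8.19, 2.04 and 6.84 CPM in the same order.

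The 250 bases upstream of the RefSeq start (GRCm38.p6) are shown for 4 of the genes that rose and for Rgs13, which fell furthest. RefSeq promoters were matched for 8 of the 9 genes (all but Mybl1), and windows that overlap an annotated exon (Cd38, Nedd9 and Gcsam) are not printed. The windows are chr19:34290409-34290658 (plus strand), chr15:25413765-25414014 (minus), chr8:70152511-70152760 (plus, a start inside the GENCODE gene), chr9:20976794-20977043 (minus) and chr1:144177373-144177622 (minus). Capitals mark matches to any of 8 motifs searched on both strands.
Fas: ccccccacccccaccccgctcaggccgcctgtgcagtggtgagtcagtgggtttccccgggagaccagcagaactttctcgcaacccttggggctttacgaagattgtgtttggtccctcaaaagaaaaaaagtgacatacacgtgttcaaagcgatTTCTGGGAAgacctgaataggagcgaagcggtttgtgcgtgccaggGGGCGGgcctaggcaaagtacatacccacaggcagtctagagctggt
Basp1: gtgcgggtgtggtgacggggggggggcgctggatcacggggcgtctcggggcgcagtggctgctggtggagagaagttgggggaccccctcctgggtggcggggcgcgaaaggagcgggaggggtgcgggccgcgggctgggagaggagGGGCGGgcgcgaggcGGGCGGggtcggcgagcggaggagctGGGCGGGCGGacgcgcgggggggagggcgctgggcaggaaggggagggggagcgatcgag
Mef2b: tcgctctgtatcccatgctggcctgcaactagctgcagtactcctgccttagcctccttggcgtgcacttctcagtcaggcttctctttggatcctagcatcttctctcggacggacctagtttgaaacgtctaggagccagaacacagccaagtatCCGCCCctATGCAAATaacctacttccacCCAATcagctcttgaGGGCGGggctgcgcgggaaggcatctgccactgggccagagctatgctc
S1pr2: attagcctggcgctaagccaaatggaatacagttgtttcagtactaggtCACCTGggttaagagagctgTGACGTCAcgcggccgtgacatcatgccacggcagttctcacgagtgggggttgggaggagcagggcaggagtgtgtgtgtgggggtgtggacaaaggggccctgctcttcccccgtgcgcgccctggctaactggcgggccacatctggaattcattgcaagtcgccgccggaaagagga
Rgs13: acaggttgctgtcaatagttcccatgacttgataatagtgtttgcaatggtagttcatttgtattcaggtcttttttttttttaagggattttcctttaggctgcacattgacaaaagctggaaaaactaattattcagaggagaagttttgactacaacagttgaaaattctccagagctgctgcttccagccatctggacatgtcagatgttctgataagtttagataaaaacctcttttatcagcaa
The Fas window holds 1 match to the STAT motif TTCNNNGAA, TTCTGGGAA at -93 from the start, a motif that 7.02% of 32851 RefSeq promoter windows of this length hold, and 1 GC box (GGGCGG, 32.7% of windows). The Basp1 window is 78.8% G and C and holds 4 GC boxes, of which 2 overlap. The Mef2b window holds the octamer ATGCAAAT (1.6% of windows) at -85, a CCAAT box (CCAAT, 33.8%) at -64 and 2 GC boxes. The S1pr2 window holds the cAMP response element TGACGTCA (1.55%) at -181 and the E box CACCTG (17.2%) at -201. The Rgs13 window is 36.0% G and C, contains 0 CpG dinucleotides and matched none of the 8 motifs. The remaining motifs, consensus sites of NF-kB (0.14% of windows) and of MEF2 (0.103%), matched none of the 5 windows. Of the windows not printed, that of Nedd9, which fell, was 54.8% G and C with 17 CpG dinucleotides. It held GC boxes and a CCAAT box. That of Gcsam, which rose, was 51.6% G and C with 3 CpG, and that of Cd38, which fell, 48.8% with 1. Neither of these matched a motif. A link between these windows and the direction of change was not tested. A match describes letters and was not tested as a binding site.

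The comparison of iGCB with naive cells asked how far the culture moved the markers. In WT cells all 9 markers passed the test (adjusted p under 0.05), 6 higher and 3 lower, on a background of 56.4% of all genes tested (24.7% higher and 31.7% lower). In KO cells all 9 passed too, 6 higher and 3 lower, on a background of 56.2% (24.8% higher and 31.4% lower). With so large a share of all genes moving, the count of markers is read here only for its directions. Their median log2 fold change was 1.89 in WT and 2.57 in KO, beside -0.25 and -0.26 over all genes tested. The markers were chosen with earlier results of these data known, so this median is a description and not a test. The groups of the 2 stages did not overlap for any of the 9 markers, as for 72.5% of all genes in WT and 75.5% in KO. The WT and KO comparisons used separate libraries but 1 shared estimate of each gene's spread.

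**Figure D1:**
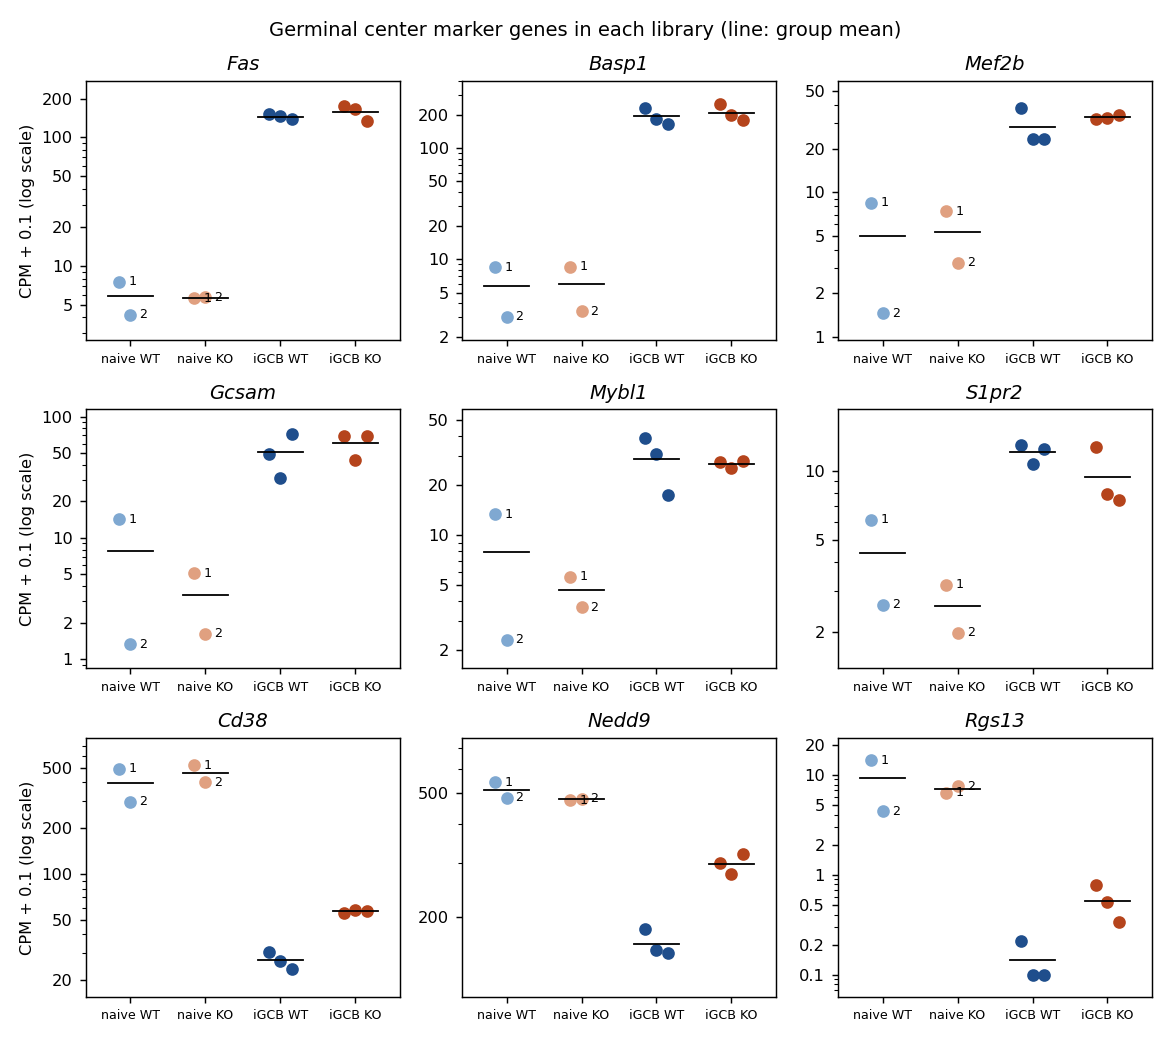
Level of each marker in the 10 libraries, in CPM plus 0.1 on a log scale, by group (points: libraries; line: group mean; the digit beside a naive point is the library number). The top 6 panels show iGCB libraries above all naive libraries, the bottom 3 show them below, and naive WT 1 lies above naive WT 2 in all 9 panels.

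Fas and Basp1 moved furthest among the genes that rose. Fas stood at 7.46 and 4.08 CPM in naive WT libraries and at 151, 147 and 138 CPM in iGCB WT. In KO cells it stood at 5.54 and 5.65 CPM when naive and at 175, 165 and 133 CPM after culture. Every iGCB library was far above every naive library, and the WT and KO libraries overlapped within each stage. The log2 fold change was 4.65 (SE 0.28, adjusted p = 6.9e-07) in WT, a 25.0-fold rise, and 4.82 (SE 0.28, adjusted p = 6.67e-07) in KO. Basp1 stood at 8.38 and 2.95 CPM in naive WT libraries and 8.47 and 3.29 in naive KO libraries. In culture its level was 231, 184 and 164 CPM in WT and 247, 199 and 177 CPM in KO. Its lowest iGCB library was thus well above its highest naive library. It rose by 5.08 on the log2 scale (SE 0.53, adjusted p = 2.48e-05) in WT and by 5.13 (SE 0.53, adjusted p = 2.48e-05) in KO. Without naive WT 1 the WT value for Basp1 was 6.03, and without naive KO 1 the KO value was 5.99.

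The transcription factors rose less and varied more. Mef2b stood at 8.38 and 1.36 CPM in naive WT libraries and 7.33 and 3.16 in naive KO libraries. Cultured cells held 38.4, 23.4 and 23.2 CPM in WT and 32.3, 32.6 and 34.5 CPM in KO. The iGCB KO libraries lay close together, within the range of the iGCB WT libraries. Mef2b rose by 2.53 (log2, SE 0.62, adjusted p = 0.00576) in WT and by 2.65 (SE 0.63, adjusted p = 0.00454) in KO. Mybl1 stood at 13.3 and 2.22 CPM in naive WT libraries and 5.49 and 3.54 in naive KO libraries. In culture its level was 38.5, 30.8 and 17.3 CPM in WT and 27.6, 25.3 and 28.0 CPM in KO. The lowest iGCB WT library was close to naive WT 1, the highest naive library. Mybl1 rose by 1.89 (SE 0.59, adjusted p = 0.0193) in WT and by 2.57 (SE 0.62, adjusted p = 0.00493) in KO. The WT call for Mybl1 was lost without iGCB WT 1 (1.63, adjusted p = 0.0563). Without naive WT 1 the WT values were 4.38 for Mef2b and 3.70 for Mybl1, and without naive WT 2 they were 1.75 and 1.11. In KO, the Mef2b value was 3.40 without naive KO 1.

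Gcsam and S1pr2, an adaptor and a receptor that act on cell movement, rose in both genotypes. Gcsam stood at 14.2 and 1.24 CPM in naive WT libraries and 5.02 and 1.52 in naive KO libraries. On day 4 the levels were 49.0, 31.1 and 72.1 CPM in WT and 69.8, 43.4 and 68.9 CPM in KO. The groups of the 2 stages did not overlap, and the KO and WT cultures did. The rise was 2.71 (log2, SE 0.82, adjusted p = 0.0162) in WT and 4.2 (SE 0.89, adjusted p = 0.0025) in KO. Without naive WT 1 the WT value was 5.36, without naive WT 2 it was 1.84, and in KO it was 5.33 without naive KO 1 and 3.599 without naive KO 2. S1pr2 stood at 6.03 and 2.52 CPM in naive WT libraries and 3.10 and 1.88 in naive KO libraries. In culture its level was 12.8, 10.6 and 12.3 CPM in WT and 12.5, 7.84 and 7.36 CPM in KO. The separation was narrow in absolute terms, with the lowest iGCB KO library a little above naive WT 1. S1pr2 rose by 1.47 (SE 0.43, adjusted p = 0.0131) in WT and by 1.89 (SE 0.44, adjusted p = 0.00402) in KO. The WT call for S1pr2 was lost without naive WT 2 (0.97, adjusted p = 0.0827), and its value was 2.24 without naive WT 1.

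Cd38, Nedd9 and Rgs13 fell in culture. Cd38 stood at 492 and 298 CPM in naive WT libraries and 517 and 401 in naive KO libraries. Cultured cells held 30.6, 26.6 and 23.5 CPM in WT and 55.5, 58.0 and 57.1 CPM in KO. Naive cells were high and cultured cells low in both genotypes, with the KO cultures above the WT cultures. Cd38 fell by 3.88 on the log2 scale (SE 0.23, adjusted p = 6.41e-07) in WT and by 3.01 (SE 0.22, adjusted p = 2.83e-06) in KO. Nedd9 stood at 544 and 484 CPM in naive WT libraries and 476 and 481 in naive KO libraries. In culture its level was 183, 157 and 154 CPM in WT and 299.7, 275 and 319 CPM in KO. Naive cells were again above all cultured cells, and the KO cultures lay between them and the WT cultures. Nedd9 fell by 1.64 (SE 0.15, adjusted p = 1.03e-05) in WT and by 0.68 (SE 0.15, adjusted p = 0.00286) in KO.

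Rgs13, known as a gene switched on in germinal centers, was nearly absent from the cultures. It stood at 14.0 and 4.24 CPM in naive WT (827 and 168 counts) and at 6.52 and 7.60 CPM in naive KO (400 and 339 counts). In iGCB WT it had 4, 0 and 0 counts, and in iGCB KO 24, 14 and 8 counts (0.684, 0.429 and 0.235 CPM). Every naive library was above every cultured library. The KO fall was 3.96 on the log2 scale (SE 0.80, adjusted p = 0.00181), a level 15.6-fold lower. The WT fall passed the test as well (adjusted p = 0.000104), and its fitted log2 value of -7.84 depends on the prior count and on iGCB WT 1, without which it was -11.60 with 0 counts left in the group. It was -6.73 without naive WT 1, -8.47 without naive WT 2, and -7.29 and -7.24 without iGCB WT 2 and iGCB WT 3.

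**Figure D2:**
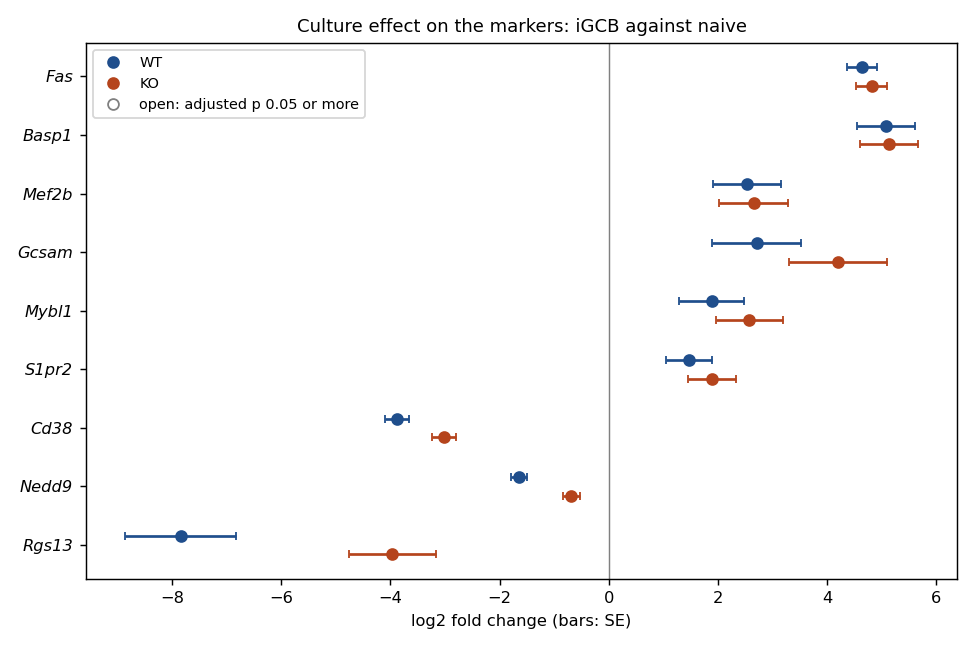
Log2 fold change of iGCB against naive cells for each marker in WT and KO (points: estimate; bars: SE; filled: adjusted p under 0.05). Values run from 5.13 for Basp1 in KO to -7.84 for Rgs13 in WT, and the bars are widest for Rgs13 and Gcsam.

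Markers of other cells differed between the stages as well. The summed level of 20 fibroblast markers was 20.7 to 25.7 CPM (WT) and 7.33 to 26.2 (KO) in naive cells, and 376 to 460.1 (WT) and 344 to 389 (KO) in culture. In the cultures most of it was Thy1, which other cells also express. Without Thy1 the sums were, in the same order, 8.71 to 19.3, 5.71 to 15.0, 46.7 to 90.2 and 39.5 to 87.1 CPM. Of the 17 fibroblast markers tested, 7 rose and 2 fell in WT culture, and 10 rose and 2 fell in KO culture. Of all genes tested, 24.7% were higher and 31.7% lower in WT, and 24.8% and 31.4% in KO. The 2 markers that fell were Acta2 and Loxl2 in both genotypes. The WT call for Loxl2 was lost by DESeq2 and without each iGCB WT library, among other fits. The collagen gene Col1a1 was at 0.555 CPM or less in the naive libraries and rose to 29.5, 20.2 and 13.1 CPM in WT and 20.7, 13.7 and 16.2 CPM in KO cultures. Col1a2, Col6a1, Sparc, Cav1, Ccn1 and Thy1 also rose in both genotypes, and 1 of the 20, Ccn2, was at 0 in all 6 iGCB libraries. These fibroblast genes were named after their values were seen. Summed myeloid markers (14 genes) were 431 to 581 CPM (WT) and 148 to 779 (KO) in naive cells, and 31.2 to 51.8 (WT) and 48.6 to 93.4 (KO) in culture. Summed T cell markers (10 genes) were, in the same order, 38.8 to 52.1, 20.9 to 67.7, 10.3 to 13.6 and 7.20 to 10.2 CPM. The part of feeder, myeloid or T cell RNA in the change of any marker was not tested.

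Scaled by exon length, the markers changed order between the stages. In naive WT the highest levels per kilobase were those of Cd38 (102 ± 35.2 CPM per kb, SD, n = 2) and Nedd9 (80.6 ± 6.68), and the other 7 lay between 5.50 for Rgs13 and 0.536 for S1pr2. In iGCB WT the highest were Basp1 (96.0 ± 17.1 CPM per kb, SD, n = 3) and Fas (70.5 ± 3.20), followed by Nedd9 (25.9 ± 2.51), Mef2b (20.2 ± 6.19) and Gcsam (14.8 ± 6.0). Cd38 (6.91 ± 0.921) and Mybl1 (5.35 ± 1.99) came next, and S1pr2 (1.49 ± 0.147) and Rgs13 (0.0235 ± 0.0408) were last. S1pr2, the receptor that marks germinal center cells in reporter mice, was thus low on this scale in both stages. In KO cells the order of the 9 was the same in each stage, with Cd38 at 14.6 ± 0.333 and Nedd9 at 46.7 ± 3.49 CPM per kb in iGCB. Neighbours whose ranges overlapped in iGCB WT were Mef2b with Nedd9 and with Gcsam, and Cd38 with Mybl1.

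The naive libraries of one genotype differed in the markers. Naive WT 1 was above naive WT 2 for all 9 genes, by 11.5-fold for Gcsam, 6.15-fold for Mef2b, 5.99-fold for Mybl1, 3.30-fold for Rgs13, 2.84-fold for Basp1, 2.39-fold for S1pr2, 1.83-fold for Fas, 1.65-fold for Cd38 and 1.12-fold for Nedd9. Their median log2 ratio was 1.51, beside -0.03 over 18401 genes, of which 48.5% were above 0. Among those genes, 0.223% had a ratio at least as large as Gcsam, 0.674% as Mef2b and 0.75% as Mybl1. Between naive KO 1 and naive KO 2 the ratio was 3.29-fold for Gcsam, 2.57-fold for Basp1 and 2.32-fold for Mef2b, while Fas, Nedd9 and Rgs13 were at 0.981, 0.989 and 0.858. The KO median was 0.63, beside -0.01 over all those genes.

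**Figure D3:**
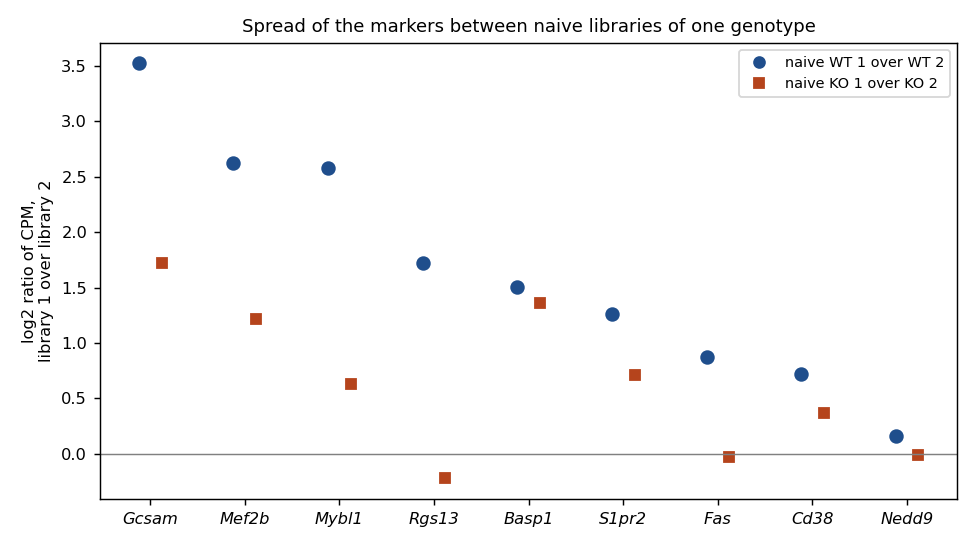
Log2 ratio of CPM between library 1 and library 2 of the naive groups for each marker (circles: WT; squares: KO; line: equal levels). All 9 WT ratios are above 0, from 3.52 for Gcsam to 0.17 for Nedd9, and 6 of the 9 KO ratios are.

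The number 1 libraries of both naive groups were placed with female mice and the number 2 libraries with male mice, 1 of each in a group, so sex and library cannot be told apart. Myeloid markers summed to 581 CPM in naive WT 1 and 431 in naive WT 2, and to 779 and 148 in naive KO 1 and 2. T cell markers summed to 52.1, 38.8, 67.7 and 20.9 CPM in the same order, and B cell markers to 9606, 8481, 6700 and 6907 CPM. The part of these in the spread of the markers was not tested. The iGCB libraries were all placed with male mice, so the WT values without naive WT 1 and the KO values without naive KO 1 compare male libraries only.

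The comparison of KO with WT in iGCB cells asked what loss of Pcbp1 does to cultured cells. Nedd9 and Cd38 rose and the other 7 markers did not pass, so 2 of 9 were higher and 0 lower, on a background of 1.27% of all genes (0.343% higher and 0.923% lower). Nedd9, at 183, 157 and 154 CPM in WT and 299.7, 275 and 319 in KO, rose by 0.85 on the log2 scale (SE 0.14, adjusted p = 0.0125), or 1.81-fold. Cd38, at 30.6, 26.6 and 23.5 CPM in WT and 55.5, 58.0 and 57.1 in KO, rose by 1.08 (SE 0.20, adjusted p = 0.024), or 2.12-fold. Neither gene had a KO library within the WT range. Both are genes that culture lowered, so their KO levels lay between the iGCB WT and the naive levels.

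Both calls were lost in most fits that left out 1 iGCB library, while the estimates moved little. Nedd9 kept its call without iGCB WT 1 and without any naive library, and lost it without each of the other 5 iGCB libraries (adjusted p 0.053 to 0.0898). Cd38 kept it without any naive library and lost it without each of the 6 iGCB libraries (adjusted p 0.0528 to 0.127). The fold changes themselves stayed between 0.80 and 0.94 for Nedd9 and between 0.99 and 1.19 for Cd38 in these fits. Over all 16 alternatives, which add changes of method to these fits, Nedd9 kept its call in 11 and Cd38 in 10. Gm32401, the antisense neighbour of Nedd9, was at 1.73 to 2.48 CPM in iGCB WT and 5.27 to 7.68 in iGCB KO, and its part in the Nedd9 counts was not tested. Fibroblast, myeloid and erythroid marker sums of the 2 groups overlapped. Those of B cells (4224 to 4623 CPM in WT, 4901 to 5225 in KO), NK cells (9.44 to 17.3 and 18.8 to 25.2) and T cells (10.3 to 13.6 and 7.20 to 10.2) did not, and their part in the values of Cd38 and Nedd9 was not tested.

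Rgs13 had 4 counts in the iGCB WT libraries together and 24, 14 and 8 counts in the iGCB KO libraries. The groups did not overlap, as for 20.5% of all genes. The log2 fold change was 3.51 (SE 0.98, adjusted p = 0.159) and did not pass, while DESeq2 (adjusted p = 0.00697) and the fit without a filter on low counts (adjusted p = 0.000251) called it. Leaving out 1 library gave values from 2.91 (without iGCB WT 3) to 7.27 (without iGCB WT 1, which leaves 0 counts in WT), and none passed (adjusted p 0.0644 to 0.448). The counts of both mates of a pair may enter singly, so 4 counts can be fewer fragments.

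The remaining 6 markers did not differ beyond the spread of the libraries. Log2 fold changes were 0.12 (SE 0.20) for Fas, 0.11 (SE 0.37) for Basp1, 0.23 (SE 0.50) for Mef2b, 0.26 (SE 0.65) for Gcsam, -0.10 (SE 0.49) for Mybl1 and -0.36 (SE 0.36) for S1pr2, all with adjusted p of 0.845 or more. The standard errors of Mef2b, Gcsam and Mybl1 are wide, so these values do not show equal levels in the 2 genotypes. Simulated counts of this design had 28% of their 2-fold changes and 80% of their 4-fold changes called.

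In naive cells 0 of the 9 markers passed, on a background of 0.0476% of all genes (0.0143% higher). None had an unadjusted p under 0.05, while 1166 of all genes did. DESeq2 called 0 of the 9, and the fit without a filter on low counts called 1, Gcsam (-1.22, adjusted p = 0.00283). The log2 fold change of Gcsam was -1.50 in the female pair (naive KO 1 over naive WT 1) and 0.30 in the male pair. The pairs also went opposite ways for Fas (-0.43 and 0.47), Rgs13 (-1.10 and 0.84), Mef2b (-0.19 and 1.21) and Mybl1 (-1.28 and 0.67). S1pr2 was lower in KO in both pairs (-0.96 and -0.42), and Cd38 was higher (0.07 and 0.43). Nedd9, with KO at 476 and 481 CPM and WT at 544 and 484, was the only marker whose naive groups did not overlap, as for 24.2% of all genes, and its log2 difference of -0.10 (SE 0.17, adjusted p = 1) became 0.03 when counts were scaled by library size alone.

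**Figure D4:**
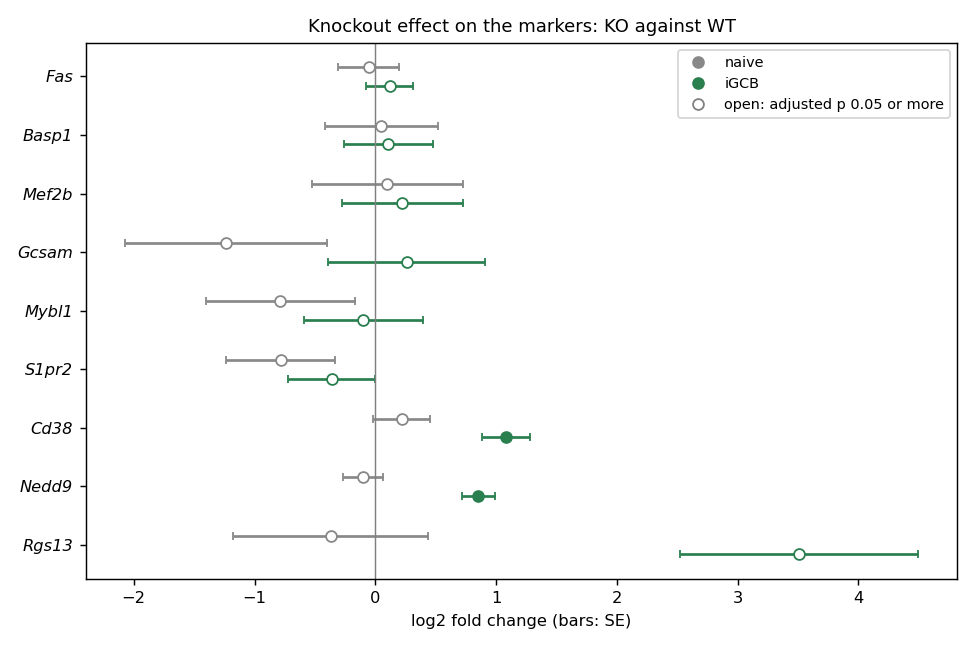
Log2 fold change of KO against WT for each marker in naive and in iGCB cells (points: estimate; bars: SE; filled: adjusted p under 0.05). Filled points stand only at Cd38 (1.08) and Nedd9 (0.85) in iGCB, and the Rgs13 point at 3.51 has the widest bar.

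The difference between the KO effect in iGCB and that in naive cells was tested directly, and 0 of the 9 markers passed, on a background of 0.0333% (0.0143% higher and 0.019% lower). In the edgeR quasi-likelihood test fitted across all genes, Nedd9 was at 0.96 (SE 0.21, adjusted p = 0.221), Rgs13 at 3.88 (SE 1.29, adjusted p = 0.561) and Cd38 at 0.86 (SE 0.31, adjusted p = 0.624). The Rgs13 value was 2.78 without naive WT 1, 4.51 without naive WT 2, 3.27 without iGCB WT 3 and 7.64 without iGCB WT 1, none past the threshold. These 3 markers were under 0.05 before adjustment, as were 1273 of all genes. DESeq2 called Nedd9 (adjusted p = 6.16e-05), and the fit without a filter on low counts called 2 markers. A knockout effect on Cd38 or Nedd9 that is particular to the cultured cells was therefore not shown.

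Other genes known from germinal center B cells moved both ways in culture. Of 18 such genes, all tested, 7 rose and 8 fell in WT, the median being -0.03 (log2). In KO 7 rose and 3 fell, the median being 0.23. Over all genes tested, culture raised 24.7% and lowered 31.7% in WT, and 24.8% and 31.4% in KO. For KO against WT in iGCB, 0.343% were higher and 0.923% lower. These shares stand behind the counts of every gene list here, and the culture counts are read only for their directions. Neil1, a DNA repair glycosylase, rose by 3.09 (SE 0.20, adjusted p = 1.01e-06) in WT. Bach2, a repressor that holds back plasma cell fate, fell by 3.53 (SE 0.27, adjusted p = 3.08e-06). Nuggc, a germinal center GTPase, fell by 3.10 (SE 0.96, adjusted p = 0.0175), a call lost with a term for sex and without naive WT 1 (-1.58), iGCB WT 1 or iGCB WT 2, and its value was -3.83 without naive WT 2. Between KO and WT cultures 1 of the 18 passed, Neil1, which was lower in KO (-0.91, SE 0.15, adjusted p = 0.0172), a call lost without iGCB WT 2 and without each iGCB KO library.

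Bcl6, the repressor at the centre of the germinal center program, was chosen after its values were seen. It stood at 184 and 128 CPM in naive WT libraries and 79.5 and 122 in naive KO libraries. On day 4 the levels were 87.9, 67.8 and 56.6 CPM in WT and 124, 96.3 and 115 CPM in KO. In WT the cultured cells were all below the naive cells, and in KO the groups overlapped. Bcl6 fell by 1.14 (log2, SE 0.25, adjusted p = 0.00258) in WT, and was at 0.14 (SE 0.25, adjusted p = 0.634) in KO. The difference between the 2 was 1.29 (SE 0.35, adjusted p = 0.392) and did not pass.

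**Figure D5:**
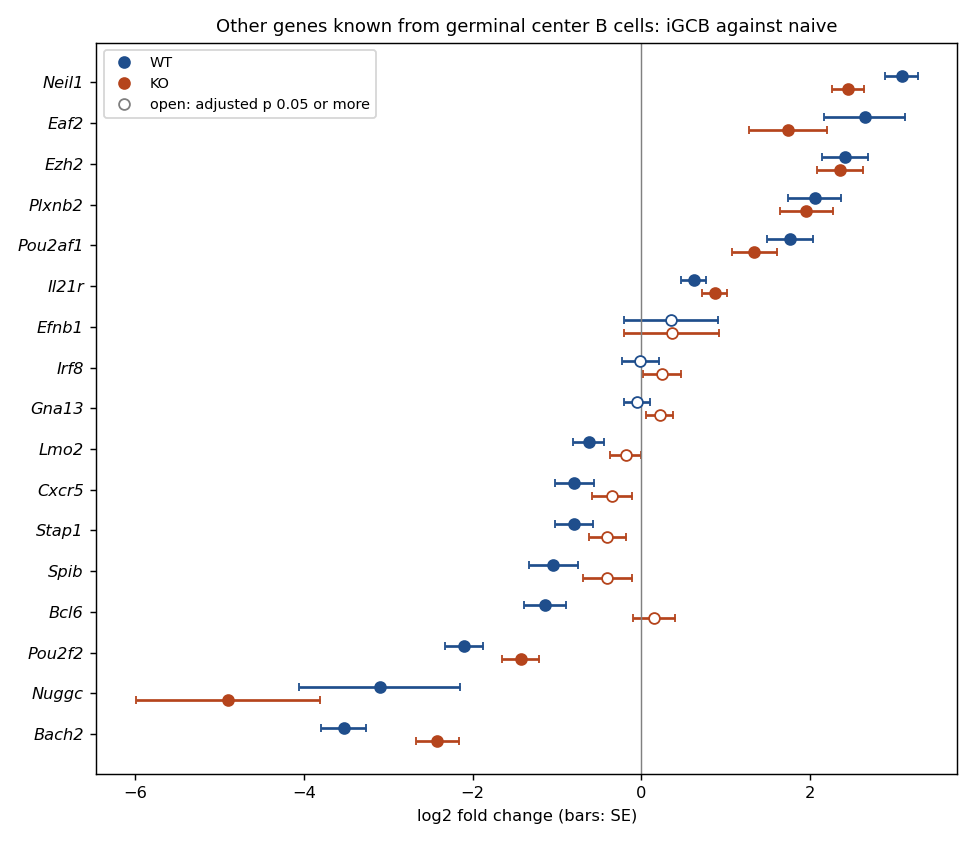
Log2 fold change of iGCB against naive cells for other genes known from germinal center B cells, in WT and KO (points: estimate; bars: SE; filled: adjusted p under 0.05). Neil1 stands at 3.09 in WT, Bcl6 at -1.14 in WT and 0.14 in KO, and Bach2 at -3.53 in WT.

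Germinal centers have a dark zone of dividing cells and a light zone of selection. Of 8 dark zone genes, 6 rose and 2 fell in WT, and 6 rose and 2 fell in KO. Those that rose include the cyclins Ccnb1 (4.21, SE 0.31) and Ccnb2 (3.68, SE 0.20) and Hmmr (3.94, SE 0.53), which mark mitosis in any dividing cell. The WT value of Hmmr was 5.39 without naive WT 1 and 3.24 without naive WT 2. Those that fell were Foxo1 (-1.66, SE 0.18, adjusted p = 2.91e-05), the transcription factor that maintains the dark zone, and the chemokine receptor Cxcr4. Of 10 light zone genes, 4 rose and 4 fell in WT and 4 rose and 2 fell in KO. Traf1, a CD40 signalling adaptor, rose by 2.19 (SE 0.26) and the immediate early gene Egr3 fell by 6.08 (SE 0.30) in WT. Icam1 rose by 1.05 (SE 0.27), a call lost without naive WT 2, and the costimulator Cd86 fell by 2.62 (SE 0.45), a value of -1.78 without naive WT 2 and -3.22 without iGCB WT 2.

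Of 12 genes that germinal center B cells are known to lower, 10 fell and 2 rose in WT, with a median of -3.6, and 8 fell and 2 rose in KO, with a median of -2.91. The complement receptor Cr2 (-7.45, SE 0.31), the IgD heavy chain Ighd (-6.90, SE 0.32) and the chemokine receptor Ccr6 (-5.64, SE 0.23) were among those that fell in WT. The genes that rose were Gpr183 and Fcer2a. Between KO and WT cultures, 3 of the 12 were higher in KO, among them Ighd (3.88, SE 0.27, adjusted p = 0.000199) and Ccr6 (2.76, SE 0.20), as Cd38 was, and S1pr1 was lower (-2.14, SE 0.31, adjusted p = 0.00949). The S1pr1 call was lost without iGCB KO 2 or iGCB KO 3 (range -2.45 to -1.70). Of 10 plasma cell genes, 6 rose and 2 fell in WT culture, with a median of 1.28. In KO culture 2 rose and 4 fell, with a median of -0.64. Xbp1 rose in both, by 3.44 (SE 0.23) in WT and 2.31 (SE 0.22) in KO. Between KO and WT cultures, 5 of the 10 were lower in KO and 0 were higher, beside 0.923% of all genes lower. Among the 5 were Bhlha15 (-3.55, SE 0.40), Jchain (-3.27, SE 0.26) and Prdm1 (-2.29, SE 0.38). The Prdm1 call was lost without each of the 3 iGCB KO libraries (range -2.48 to -1.85).

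The relatives of the markers were read from family lists. Of 10 other RGS genes, 6 fell and 2 rose in WT, with Rgs2 (-7.14, SE 0.25), Rgs18 (-4.85, SE 0.61), Rgs14 (-2.93, SE 0.22) and Rgs1 (-2.50, SE 0.23) falling furthest, and 6 fell and 2 rose in KO. Without naive WT 1 the value of Rgs18 was -4.12. Among 9 other genes of sphingosine 1-phosphate and G protein signalling, S1pr1, the receptor that draws cells out of the follicle, fell by 5.19 (SE 0.36, adjusted p = 1.66e-06) in WT and by 6.95 (SE 0.39, adjusted p = 6.29e-07) in KO, opposite to S1pr2. In all, 1 of these 9 rose and 3 fell in WT, and 3 rose and 3 fell in KO. Of 3 other MEF2 genes, Mef2a rose (1.28, SE 0.21) and Mef2d fell (-1.79, SE 0.23) in WT and in KO. Both other MYB genes rose, Mybl2 by 3.17 (SE 0.28) and Myb by 1.96 (SE 0.35) in WT.

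Of 7 genes of the Fas death pathway, 2 rose and 2 fell in WT. Cflar, an inhibitor of Fas signalling, rose (1.3, SE 0.18). Fadd, the adaptor of Fas (-0.97, SE 0.28), and Ripk1 (-0.69, SE 0.20) fell. The WT calls for Fadd (-0.40) and Ripk1 (-0.26) were lost without naive WT 1, and that for Ripk1 also with a term for sex. In KO 2 were higher and 2 lower, with the Ripk1 call lost without naive KO 1. Of 5 partners of Gcsam and of its signalling, the kinases Syk (-3.94 in WT) and Lyn (-2.55 in WT), which act at the antigen receptor, and Arhgef11 fell in both genotypes, while Arhgef12 rose in WT (1.13), a call lost without naive WT 1. Bst1, the nearest relative of Cd38, fell by 2.47 (SE 0.57, adjusted p = 0.00389) in WT, and Parp1 rose by 0.67 (SE 0.17), a call lost without naive WT 2. In KO Bst1 alone of those 4 NAD genes passed (-2.61, and -3.30 without iGCB KO 1). Marcks and Marcksl1, relatives of Basp1, rose in both genotypes. Of 2 tested relatives of Nedd9, 0 passed in WT, and in KO Bcar1 rose (3.02, SE 0.83, adjusted p = 0.00994) and Cass4 fell (-1.73, SE 0.61, adjusted p = 0.0312). The Cass4 call was lost without naive KO 2 (-0.86), iGCB KO 2 or iGCB KO 3, and with the KO libraries fitted alone, and Bcar1 was at 5.20 without naive KO 2 and 2.17 without naive KO 1.

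Between KO and WT cultures, none of the other genes in these family lists passed the test except S1pr1. Of the B cell markers, Cd79a, the locus that carries Mb1-Cre, was lower in iGCB KO (-1.03, SE 0.145, adjusted p = 0.00794). That call was lost without iGCB KO 1 or iGCB KO 3. Cd79a is among the 8 B cell markers summed above, and its part in the sums was not tested. In naive cells 0 genes passed in each of the lists named here other than the B cell markers, of which Cd79a was lower in KO (-1.60), a call lost without either naive KO library and without iGCB KO 1.

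The genes whose profile over the 10 libraries was most like that of each marker were found by the root mean square difference of centred log2 CPM among 9886 genes (9887 for Rgs13) with a mean log2 CPM of at least 2. For Fas the nearest was Pgam1, a glycolytic enzyme (0.132), and for Basp1 it was Tpi1, another (0.214). Mef2b was nearest to Nusap1 (0.283) and Ezh2 (0.285), and Mybl1 to Zfp54 (0.263) and Myb (0.289). Nedd9 was nearest to Socs5 (0.14), Cd38 to the Fc receptor-like gene Fcrl1 (0.218), S1pr2 to Ptgr1 (0.178), and Gcsam to Stmn1 (0.419), the largest distance of the 9. Rgs13 was nearest to Lyn (0.216), Shisa5 (0.219) and Rgs18 (0.229). All these profiles share the 10 libraries and the step between the stages, and nothing is drawn from them about shared control.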

How the data were processed

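The files held raw counts per gene symbol for 10 libraries, which the authors deposited. The submitters' processing notes name featureCounts and mm10. Neither aligner nor annotation nor strandedness is named in the sources. Counts were fitted as deposited. Of the counts from 1 to 20, 17.7% to 26.9% per library were odd, so mates may have been counted singly and counts are not independent fragments.

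Genes were kept by filterByExpr by group (minimum count 10), scaled by TMM and fitted in 1 quasi-likelihood model of the 4 groups (edgeR 4.0.16, limma 3.58.1, R 4.3.3), leaving 6 residual degrees of freedom. Two-sided p-values were adjusted by Benjamini-Hochberg over 21010 genes, with a threshold of 0.05. SE is the fold change over the square root of F. Alternatives were library size scaling, DESeq2 1.42.0, no filter, a sex term, a replicate block, libraries of the stage or genotype alone, and each library left out. The script was tested on simulated data. GENCODE M21 held 96% of symbols. The members and lists were chosen with earlier results of these data known. The rule for named genes took all 9 members, up to 4 called genes of each list with the largest change, and the 3 nearest profiles. Alternatives for the other named genes and the fibroblast sum without Thy1 were chosen after seeing the data. Values of some genes on the lists are not reported here.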

Additional observations from a re-analysis of the deposited data

How the results depend on the processing

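Of the member results under the alternatives, 663 kept their direction and side of the threshold, 13 lost a call, 6 gained one and 28 changed sign, none of these 28 being called. Scaling by library size alone gave Nedd9 0.034 and Fas 0.095 in naive cells (KO against WT), and, for the difference of knockout effects, Mef2b -0.044 and Basp1 -0.097; Mef2b was -0.20 there with a sex term. Members called were 1 without a filter in naive cells, 1 by DESeq2 and 2 without a filter for the difference, 0 to 2 over the fits that leave out 1 library for KO against WT in iGCB, and 8 to 9 (WT) and 9 (KO) for culture.

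Genes called over the whole table (10 in naive cells, 266 in iGCB, 7 for the difference) were 171, 832 and 242 by DESeq2, 242, 841 and 373 without a filter, and 57, 640 and 108 with a sex term. Fits on one stage alone called 0 in naive cells and 863 in iGCB. Leaving out 1 library gave 3 to 44, 41 to 489 and 0 to 65. Culture called 11845 genes in WT (9088 to 11898) and 11811 in KO (8708 to 12429).

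With the replicate number as a block, 31, 589 and 74 genes were called and Mef2b was -0.16 for the difference. Among the named culture calls that were followed, it ended those of Fadd, Ripk1, Parp1 and Loxl2 in WT and of Cass4 in KO. The deviations of same-numbered WT and KO libraries correlated at r = 0.66 in naive cells, a single value since 2 libraries a group mirror each other, and at 0.51, -0.18 and -0.01 for numbers 1, 2 and 3 in iGCB. Not every pair was over 0.1, so the main fit did not take the numbers as pairs. These correlations cannot decide whether same-numbered libraries were paired, since the labels do not say what a shared number stands for. In naive cells the same-numbered libraries also matched in sex. The KO against WT results of the main fit, in naive and in iGCB cells, therefore take no account of any pairing.

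Leaving out 1 library gave these ranges, with changed signs. In naive cells (KO against WT) they were Basp1 -0.809 to 1.001, Cd38 -0.11 to 0.62, Fas -0.43 to 0.45, Gcsam -2.37 to 1.42, Mef2b -0.68 to 1.95, Mybl1 -1.56 to 1.02 and Rgs13 -0.995 to 0.73. In iGCB they were Basp1 -0.035 to 0.26 and Mybl1 -0.36 to 0.17. For the difference they were Basp1 -0.89 to 0.92, Fas -0.33 to 0.54, Gcsam -1.16 to 2.63, Mef2b -1.72 to 0.90, Mybl1 -1.12 to 1.46 and S1pr2 -0.34 to 0.92, and for Bcl6 in KO culture -0.12 to 0.49. The cause of these changes was not tested. Low counts limit Rgs13 in iGCB, and 2 libraries a group limit the naive values.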
